A study of Mus musculus with 20 samples.

Results

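The mitosis genes described here are 40 genes whose products carry a cell from the end of DNA replication through chromosome segregation and cell separation. They were taken by name from a fixed list, and all 40 are among the 31055 features counted in both deposited matrices. Single cells were prepared from epidermis of mouse dorsal skin in anagen, the stage of the hair cycle in which the follicle grows and its matrix cells divide. The Control group has 4 listed samples with the genotype Nfatc1-CreER;R26R;mTmG, given tamoxifen for 3 days from postnatal day 21 or 22. The Mutant group has 16 listed samples that carry the same alleles and are also Fgf5-/-, given tamoxifen for 3 days from postnatal day 23 or 24. Nfatc1-CreER is a tamoxifen-dependent recombinase active in cells that express Nfatc1, mTmG is a membrane reporter that recombination switches, and Fgf5 encodes a growth factor known for ending anagen. Start of tamoxifen and genotype differ together and cannot be told apart. All samples of a group are in 1 matrix with no map from cells to samples, so each group counts as 1 sample, no difference was tested, no p-value was computed, and every interval covers counting error only.

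As background, cells entering mitosis switch on a shared set of genes late in the cell cycle, and most of the proteins are destroyed as the cell exits mitosis. In skin, division is known to take place in the basal epidermis, the outer root sheath and, in anagen, the hair matrix, whose daughters leave the cycle as they form the hair shaft and the inner root sheath. Cdk1 is the kinase that drives mitotic entry, Ccna2, Ccnb1 and Ccnb2 are its cyclins, Cks1b and Cks2 are small proteins that bind cyclin-dependent kinases, and Cdc25c is the phosphatase that activates Cdk1. Plk1, Aurka, Ttk, Bub1 and Bub1b are mitotic and spindle checkpoint kinases or kinase-like proteins, and Aurkb, Birc5 and Cdca8 belong to the chromosomal passenger complex. Cenpa is the histone H3 variant of the centromere, Cenpe and Cenpf are kinetochore proteins, and Ndc80 and Nuf2 couple kinetochores to microtubules. Kif11, Kif20b, Kif23 and Kif2c are kinesins, and Tpx2, Nusap1, Hmmr, Tacc3, Ckap2, Ckap2l, Dlgap5 and Gtse1 act on the spindle or its microtubules. Mki67 coats mitotic chromosomes, Top2a untangles DNA and Smc4 is a condensin subunit. Ube2c and Cdc20 work with the anaphase-promoting complex, which Cdca3 is also linked to, and Anln and Ect2 act in cytokinesis.

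Promoters of such genes often carry a cell cycle homology region (CHR) and CCAAT boxes, which are known sites of cell cycle-dependent control. Promoter windows of 300 bases, 250 before to 50 after the start, were found in RefSeq (GRCm38.p6) for 34 of the 40 genes, which have 36 windows. The CHR letters TTTGAA, searched on both strands, were in 26 of the 36 windows (72.2%) and in 17.9% of all 32851 windows of that length. The letters CCAAT, on both strands, were in 28 of the 36 (77.8%) and in 37.4% of all. Both were in 22 of the 36 (61.1%) and in 6.95% of all. The following windows belong to the 5 genes on which the comparisons turn most, and they differ in these letters. Each is printed 5′ to 3′ on the strand of its gene, with capitals marking TTTGAA and CCAAT on either strand. The windows are Cdc20 at chr4:118437294-118437593 (minus strand), Top2a at chr11:99024140-99024439 (minus), Cenpa at chr5:30666636-30666935 (plus), Cks1b at chr3:89418242-89418541 (minus) and Cks2 at chr13:51644982-51645281 (plus).
Cdc20: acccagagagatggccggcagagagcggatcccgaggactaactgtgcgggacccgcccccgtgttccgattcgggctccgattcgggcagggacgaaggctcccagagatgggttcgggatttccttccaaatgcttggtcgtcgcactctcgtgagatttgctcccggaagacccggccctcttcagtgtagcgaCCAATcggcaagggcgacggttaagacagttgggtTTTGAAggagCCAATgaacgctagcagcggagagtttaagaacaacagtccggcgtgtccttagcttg
Top2a: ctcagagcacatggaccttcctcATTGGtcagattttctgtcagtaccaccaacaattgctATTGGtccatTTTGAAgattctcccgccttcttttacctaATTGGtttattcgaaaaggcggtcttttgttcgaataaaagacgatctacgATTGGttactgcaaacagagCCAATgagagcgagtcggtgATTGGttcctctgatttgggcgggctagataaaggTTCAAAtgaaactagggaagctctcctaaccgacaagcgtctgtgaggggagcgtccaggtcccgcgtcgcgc
Cenpa: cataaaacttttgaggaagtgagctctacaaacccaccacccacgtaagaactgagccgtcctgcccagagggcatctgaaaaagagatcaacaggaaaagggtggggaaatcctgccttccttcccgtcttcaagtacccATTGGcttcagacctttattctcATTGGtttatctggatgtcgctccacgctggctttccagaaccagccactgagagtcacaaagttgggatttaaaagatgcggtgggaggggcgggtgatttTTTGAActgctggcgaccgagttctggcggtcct
Cks1b: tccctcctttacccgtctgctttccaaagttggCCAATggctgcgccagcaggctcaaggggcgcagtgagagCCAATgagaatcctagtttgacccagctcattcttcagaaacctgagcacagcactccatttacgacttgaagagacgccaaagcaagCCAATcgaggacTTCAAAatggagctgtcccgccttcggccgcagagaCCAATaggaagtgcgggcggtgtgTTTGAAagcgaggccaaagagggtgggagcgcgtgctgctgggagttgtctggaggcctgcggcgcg
Cks2: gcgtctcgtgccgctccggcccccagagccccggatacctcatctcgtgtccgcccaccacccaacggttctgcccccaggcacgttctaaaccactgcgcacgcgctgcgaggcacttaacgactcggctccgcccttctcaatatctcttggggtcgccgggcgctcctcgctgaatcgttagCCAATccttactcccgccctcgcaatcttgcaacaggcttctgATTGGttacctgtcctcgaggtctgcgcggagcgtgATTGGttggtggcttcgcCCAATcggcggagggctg
Cks1b has 2 CHR matches and 4 CCAAT matches, while its close relative Cks2 has 0 CHR matches and 4 CCAAT matches. Top2a has 2 and 6, and Cdc20 and Cenpa each have 1 and 2. A match is a description of letters only.

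The Control matrix held 16973 barcodes with 140880809 UMIs (unique molecular identifiers, each counting 1 captured RNA molecule) and the Mutant matrix 13411 barcodes with 97817173 UMIs. After filtering, 13790 Control and 11002 Mutant cells were kept, with median depths of 5591.5 and 5984.5 UMIs. Since depth differed between classes and libraries, each cell was thinned at random to 1500 UMIs, which left out 1022 Control and 712 Mutant cells below that depth. A level is the share of a gene among all UMIs of the thinned cells of a class, in UMIs per 1000000 UMIs (CPM), and a log2 ratio is that of the Mutant over the Control level. Clusters formed without cell cycle genes were named X-like from marker genes, and others keep a number. The 2 libraries shared 59 barcode sequences, 36 of them among kept cells. Fgf5 was counted at 16.5 CPM (95% interval 14.7 to 18.4) in Control and 7.90 (6.56 to 9.44) in Mutant cells. The labels do not describe the Fgf5-/- allele, so these 3′ tags check nothing about genotype.

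Summed over the 40 genes, the level over all cells was 1386 CPM in the Control and 1032 in the Mutant library, a log2 ratio of -0.42 (-0.45 to -0.40). The level was lower in the Mutant library for 36 of the 40 genes, and 0 of the 19 at or above the level minimum were called over all cells, where 5.66% of the 6249 features at or above it were. A gene was called where the ratio was at least 2-fold, its nearer 95% bound was beyond 1.5-fold and the higher library had at least 20 CPM, which is the level minimum. Each background percentage here is a share of the features of that class at or above the minimum, called tested features, and each count of members is given beside how many of the 40 were tested. A gene with a high level in 1 library only can be tested through that library, so the tested members are not a sample of the 40. The difference was not spread evenly over the skin. The summed level was highest in cluster 5, an unnamed cluster led by Pclaf, Stmn1 and haemoglobin genes, at 3702 in Control and 3616 in Mutant cells. In the Control library cluster 17, led by Slc39a10, Flrt2 and Fgf5, followed with 2487, and then hair matrix-like cells with 2237. In the Mutant library cluster 2, led by Hist1h1b, was at 2179 (2114 to 2247) and cluster 17 at 2133 (1960.03 to 2316), with overlapping intervals, and hair matrix-like cells were at 1784. Of the unnamed clusters with high sums, 4 had no member called: 0 of 35 tested in cluster 5 (1.39% of tested features called), 0 of 31 in cluster 17 (1.66%), 0 of 28 in cluster 2 (1.32%) and 0 of 23 in cluster 19 (0.96%). Interfollicular basal-like, outer root sheath-like, upper follicle-like and suprabasal-like cells had lower sums in the Mutant library, and inner root sheath-like cells had a higher one. Sums were also lower in cluster 22, led by Krt6a and Apoe, at 681 and 363 (log2 ratio -0.91, -1.33 to -0.50). Fibroblast-like cells had 369 and 227 (-0.70, -1.02 to -0.38). Hair medulla-like cells and clusters 2, 19 and 25 had the higher sum in the Mutant library.

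**Figure D1:**
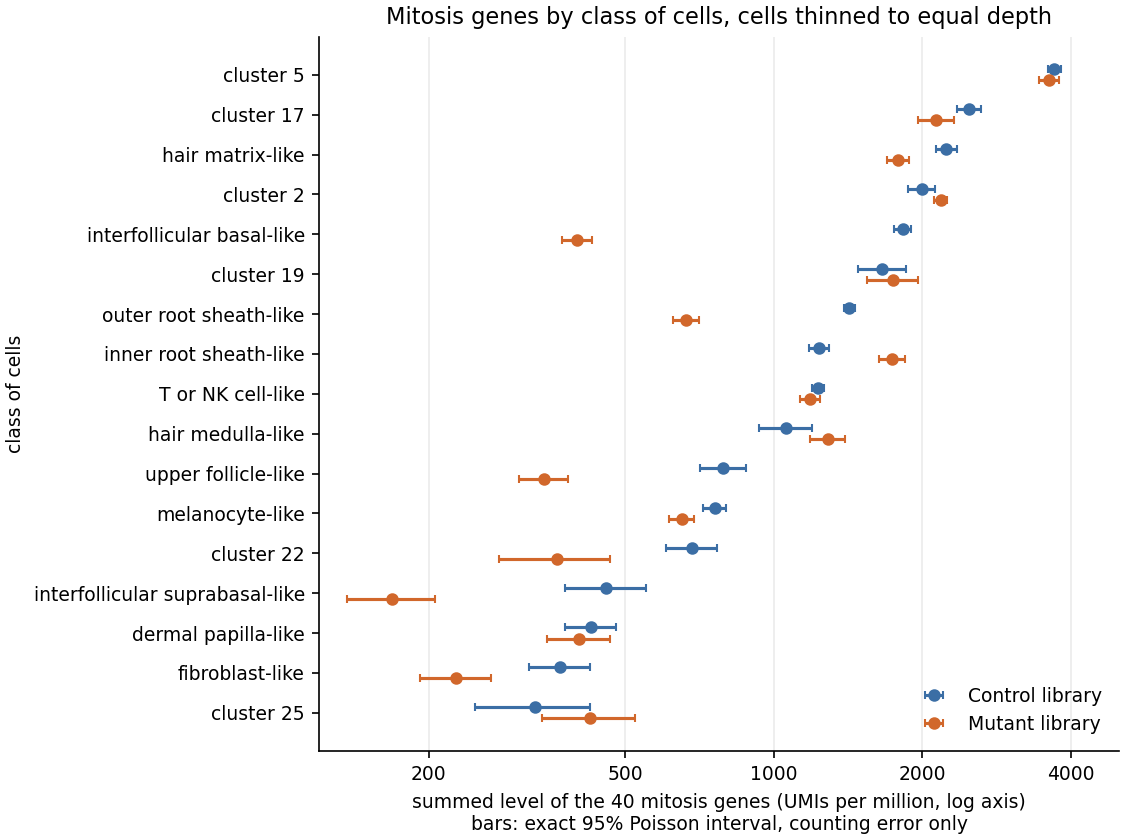
Summed level of the 40 mitosis genes by class of cells (x axis, CPM on a log axis), with blue points for the Control and orange points for the Mutant library and bars for exact 95% Poisson intervals. Cluster 5 lies to the right at 3702 and 3616, while the points of interfollicular basal-like cells lie far apart at 1824 and 399.6.

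A lower summed level can come from fewer dividing cells, from less RNA in each, or from less RNA in non-dividing cells. Dividing and non-dividing cells were therefore counted with genes that are not among the 40. A thinned cell was called dividing if it held at least 2 UMIs of 41 other mitosis genes and 20 DNA replication genes, and non-dividing if it held 0. By this count 22.6% of Control and 19% of Mutant cells were dividing, against 56.6% and 45.9% of the same cells with all of their UMIs. The share rises with depth, so only thinned shares are compared. In fibroblast-like cells, where little division is known in adult skin, the share was 3.95% and 1.86% at median depths of 4034 and 4711 UMIs, which gives the level at which a share can be read as background. The share was 20.02% (17.5 to 22.7) in Control and 6.42% (5.14 to 7.90) in Mutant interfollicular basal-like cells, and 26.7% and 13.04% in outer root sheath-like cells. In the inner root sheath-like class the order was the other way, with 20.7% (18.1 to 23.5) in Control and 37.4% (32.6 to 42.5) in Mutant cells. With all UMIs those inner root sheath-like shares were 73.8% and 72.0%, at median depths of 13736 and 10616 UMIs. Hair matrix-like cells had 39.1% and 30.8%, and hair medulla-like cells 21.5% and 22.8%. The highest shares were in unnamed clusters, with 78.6% and 69.6% in cluster 5, 49.3% and 52.8% in cluster 17 and 43.4% and 53.5% in cluster 2. Cluster 5 held 711 Control and 316 Mutant thinned cells, and cluster 2 held 341 and 1275. How the split of dividing cells between these clusters and the named classes bears on the shares was not tested. The other shaft cells had few, 6 of 168 Control cells (3.57%) and 4 of 99 Mutant cells (4.04%) in the cortex or cuticle-like class and 1 of 89 (1.12%) and 2 of 80 (2.50%) in cluster 29.

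The amount of mitosis gene RNA within dividing cells varied less between libraries than the share of dividing cells in most classes. It was 4233 and 4385 CPM in dividing cells of cluster 5, 4319 and 3906 in hair matrix-like, 3372 and 3669 in inner root sheath-like and 3358 and 4066 in melanocyte-like cells. The log2 ratios of these 4 classes lay between -0.15 and 0.28. Other classes reached further, with -0.64 (-1.04 to -0.25) in upper follicle-like, -0.33 (-0.56 to -0.10) in T or NK cell-like cells and -0.29 (-0.45 to -0.13) in cluster 17. In dermal papilla-like cells it was -0.47 (-1.50 to 0.51). Cluster 2, hair medulla-like cells and cluster 19 had 0.10, -0.04 and -0.05. Interfollicular basal-like cells stood apart, with 6967 in 193 dividing Control cells and 2260 in 82 dividing Mutant cells, a log2 ratio of -1.62 (-1.81 to -1.44). Among these dividing cells 15 of the 39 tested members were called lower, against 1.79% of tested features. The class has 2 clusters, described below. Of its dividing cells, 190 Control and 15 Mutant cells were in cluster 6, and 3 Control and 67 Mutant cells in cluster 4. Library and cluster therefore cannot be told apart in this comparison. Examples are Cks2 at 680 and 163, Top2a at 453 and 179, and Nusap1 at 138 and 0. In outer root sheath-like cells the level in dividing cells was 3756 and 2511, a log2 ratio of -0.58 (-0.71 to -0.45), and 1 of 36 tested members was called lower, Cdc20, against 0.657% of tested features. In T or NK cell-like cells 1 of 19 tested members was called lower within dividing cells, Mki67 at 127 and 23.3, against 1.37% of tested features. The cells compared here were chosen by genes that move with the 40, and how many were called dividing by chance UMIs was not tested. In non-dividing cells the summed level was 510 CPM in Control and 256 in Mutant interfollicular basal-like cells. It was 435 and 152 in suprabasal-like, 392 and 218 in upper follicle-like and 513 and 354 in outer root sheath-like cells. Classes with the higher non-dividing level in the Mutant library were hair matrix-like, hair medulla-like (323 and 516) and T or NK cell-like cells and clusters 5, 19 and 25.

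**Figure D2:**
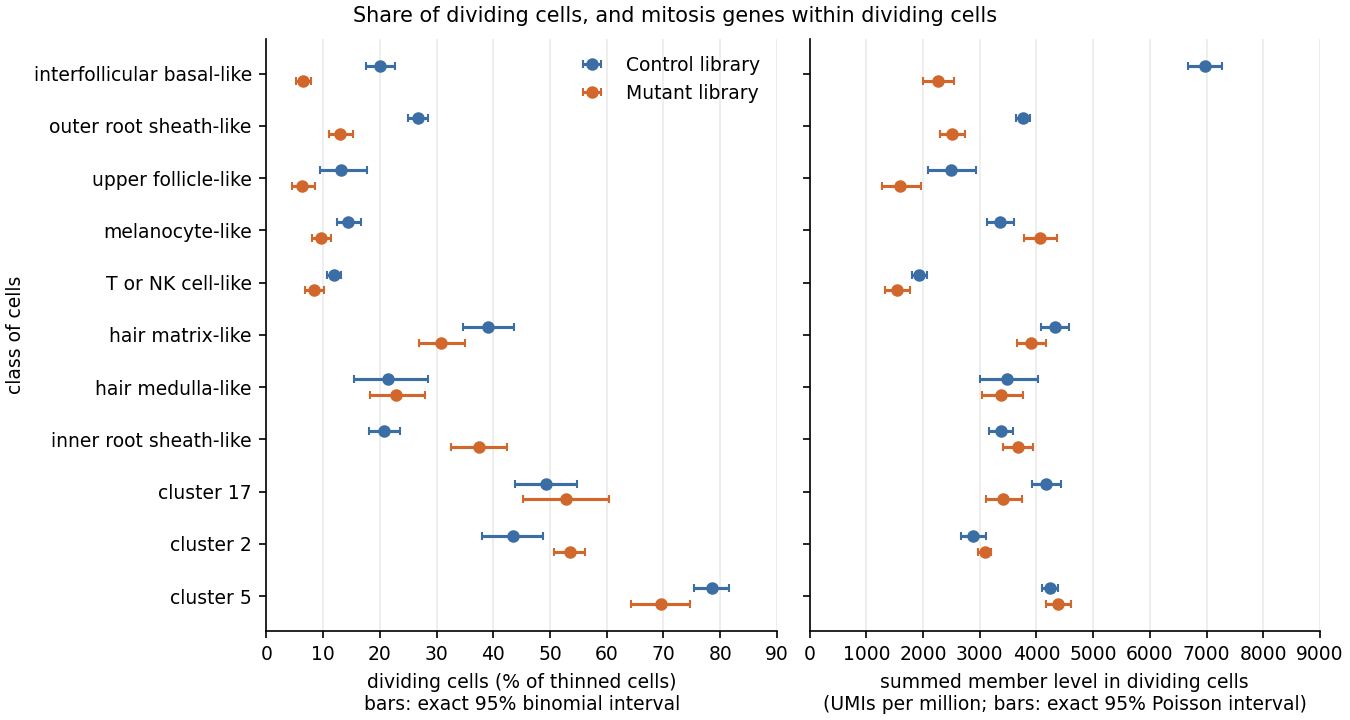
Left, dividing cells as a percentage of thinned cells by class, with exact 95% binomial intervals; right, summed level of the 40 genes within dividing cells, in CPM with exact 95% Poisson intervals (blue Control, orange Mutant). Inner root sheath-like cells have the higher share in the Mutant library (37.4% against 20.7%), and interfollicular basal-like cells are the class whose 2 levels in dividing cells lie farthest apart (6967 and 2260).

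Interfollicular basal-like cells, the dividing layer of the epidermis between follicles, had the largest difference of the classes compared. The summed level was 1824 CPM (1755 to 1895) in 964 Control cells and 399.6 (372 to 429) in 1278 Mutant cells, a log2 ratio of -2.19 (-2.31 to -2.07), while the median feature of this class had -0.19. All 40 genes had the lower level in the Mutant library, and 26 were tested and called lower, where 13.5% of tested features were. Among the partners of the Cdk1 kinase, Cdk1 itself was at 39.4 and 5.22 CPM, Ccnb1 at 36.7 and 4.17 (log2 ratio -3.13, -4.42 to -2.05), Ccna2 at 27.7 and 4.17 and Ccnb2 at 29.05 and 7.30. Cks2 was the most abundant member here, at 324 and 79.3 (log2 ratio -2.03, -2.30 to -1.76). Cks1b had the smallest ratio of the 26, with 67.1 and 28.7 (log2 ratio -1.23, -1.73 to -0.73), and with TMM scaling its ratio was -0.92 and not called. Of the spindle genes, Tpx2, an activator of Aurora A, was at 45.6 and 3.65 (-3.64, -5.01 to -2.52), and Ckap2l at 41.5 and 4.69 (-3.14, -4.34 to -2.12). Nusap1, which bundles microtubules, had 43 UMIs in the Control and 0 in the Mutant library and was at least 19-fold lower (against a floor of 3 UMIs in the library). Hmmr, Ckap2 and Tacc3 were also called lower. Tacc3 at 20.1 was just above the level minimum, and the kinesin Kif11 at 15.9 just under it.

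The kinetochore gene Cenpf was at 98.2 CPM in Control and 11.5 in Mutant interfollicular basal-like cells (log2 ratio -3.10, -3.82 to -2.44), and Cenpa and Cenpe were called lower with log2 ratios of -1.63 and -1.70. Kif20b, a kinesin of late mitosis, was at 26.3 and 3.13 (-3.07, -4.60 to -1.82), and Kif23 had -2.95. Birc5 and Cdca8 of the passenger complex had log2 ratios of -2.74 and -1.75. The chromosome genes Mki67, Top2a and Smc4 were close to each other at -1.94, -1.98 and -1.92. For the anaphase-promoting complex, Ube2c was at 126 and 19.3 (-2.71), and Cdc20 and Cdca3 had -2.01 and -1.82. Anln, needed for the cleavage furrow, had -1.77. The other 14 genes, Aurka, Aurkb, Plk1, Bub1, Bub1b, Ttk, Kif11, Kif2c, Ect2, Dlgap5, Ndc80, Nuf2, Gtse1 and Cdc25c, stayed under 20 CPM in both libraries and could not be called. Plk1, Aurka, Bub1, Bub1b and Ttk are all among these, as is the kinase Aurkb, so nothing can be said of these 6 genes one by one.

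The 2 libraries filled the interfollicular basal-like class from different clusters. Of its cells, 1200 Mutant and 24 Control cells were in cluster 4, whose leading genes were Tslp, Epgn, Ccl20 and Ptgs2, genes known from inflamed or stressed skin. In cluster 6, led by Ndufa4l2 and Clca3a2, were 1007 Control and 87 Mutant cells. A cluster drawn mostly from 1 library may be that library and not a type. Within cluster 6 the summed level was 1849 in 941 thinned Control cells and 1460 in 84 Mutant cells, a log2 ratio of -0.34 (-0.56 to -0.12), and 20.2% and 17.9% of cells were dividing. There 1 of the 29 tested members was called lower, Cks2 at 326 and 127 (-1.36, -2.18 to -0.64), where 0.768% of tested features were, and Cenpa at 58.1 and 127 and Cdc20 at 57.4 and 103 had the higher level in the Mutant library. The Mutant cells of cluster 4 had 325 CPM, with 5.61% dividing. Of the 1278 thinned Mutant cells of the class 1194 were in cluster 4, where library and cell state cannot be told apart. Erythroid markers, haemoglobin genes included, were at 7376 in Control and 3317 in Mutant cells of the class, all 5 markers above 0. The 7 T cell or NK cell markers were at 47.0 and 25.0 against 9955 and 9305 in the T or NK cell-like class. The part of either in the result was not tested.

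Outer root sheath-like cells, which form the outer sleeve of the follicle, had a summed level of 1423 CPM (1384 to 1462) in 2449 Control cells and 664 (625 to 704) in 1081 Mutant cells. The log2 ratio was -1.10 (-1.20 to -1.01), and -0.86 with all UMIs. The level was lower in the Mutant library for 39 of the 40 genes, with Gtse1 the exception at 2.18 and 4.32. Of the 20 tested members, 12 were called lower, where 2.02% of tested features were. The largest ratio was that of Cdc20, the activator of the anaphase-promoting complex, at 53.1 and 9.25 (-2.52, -3.39 to -1.76). Its log2 ratio was -1.16 with all UMIs and -1.60 with another random thinning, so its rank among the members is not settled. The cyclins followed, with Ccnb1 at 25.9 and 4.93 (-2.39, -3.64 to -1.35), Ccna2 at 23.1 and 5.55 (-2.06, -3.24 to -1.07) and Ccnb2 at 30.5 and 9.25 (-1.72, -2.61 to -0.94). With all UMIs the log2 ratios of Ccnb1, Ccna2 and Ccnb2 were -0.90, -0.94 and -1.24.

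Cdca3 at 42.5 and 12.95 CPM (log2 ratio -1.71, -2.45 to -1.05) and Cdca8 at 54.4 and 16.7 (-1.71, -2.35 to -1.12) completed the 6 largest ratios in outer root sheath-like cells. Cenpf, Cdk1, Birc5 and Kif23 had log2 ratios between -1.61 and -1.49, and Cks2 and Cenpa -1.17 and -1.13. Mki67, Top2a, Smc4 and Cks1b were not called, with log2 ratios of -0.95, -0.61, -0.65 and -0.52. Ube2c at 66.1 and 34.5 and Tpx2 at 30.8 and 14.2 were not called either. Both clusters of the class went the same way, cluster 0 with 1529 and 642 and cluster 8 with 1083 and 708, log2 ratios of -1.25 (-1.37 to -1.14) and -0.61 (-0.79 to -0.44). Erythroid markers were at 4472 in Control and 1969 in Mutant cells of the class and T cell or NK cell markers at 43.6 and 8.02, with 2 of the 7 at 0 in the Mutant library. Their part was not tested.

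In upper follicle-like cells, from the mouth and neck of the follicle, the summed level was 790 in 281 Control and 342 in 603 Mutant cells, a log2 ratio of -1.21 (-1.44 to -0.98), and 13.2% and 6.30% of cells were dividing. Of the 11 tested members, 4 were called lower, where 4.97% of tested features were. They were the kinetochore gene Cenpe at 23.7 and 4.42 CPM (-2.42, -4.55 to -0.63), Cenpa at 42.7 and 9.95 (-2.10, -3.44 to -0.87), Cks2 at 187 and 55.3 (-1.76, -2.30 to -1.23) and Mki67 at 52.2 and 15.5 (-1.75, -2.83 to -0.72). Cenpe rested on 10 Control and 4 Mutant UMIs. Top2a, at 35.6 and 34.3, was not called. Erythroid markers were at 7905 and 4315 and T cell or NK cell markers at 54.6 and 31.0 in this class, with 1 of the 7 at 0 in the Control library, and their part was not tested. Of the suprabasal-like cells, which have left the basal layer, 9 of 166 Control and 8 of 380 Mutant cells were dividing, and the summed level was 458 and 168. There 2 of 5 tested members were called lower, where 7.58% of tested features were: Cks2 at 249 and 54.4 (-2.19, -2.87 to -1.55), and Top2a with 6 and 0 UMIs, at least 4.58-fold lower. T cell or NK cell markers were at 169 and 15.8 in suprabasal-like cells, with 5 of the 7 at 0 in the Mutant library, and erythroid markers at 2743 and 2533. Their part was not tested.

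Inner root sheath-like cells, which build the sheath around the growing shaft, had the opposite order. The summed level was 1234 CPM (1176 to 1295) in 917 Control cells and 1736 (1630.2 to 1848) in 382 Mutant cells, a log2 ratio of 0.49 (0.38 to 0.61), and 33 of the 40 genes had the higher level in the Mutant library. Of the 24 tested members only Top2a was called higher, at 72.0 and 175 (1.28, 0.86 to 1.69), where 1.68% of tested features were, and 0 were called lower, where 1.05% were. Smc4 at 84.3 and 161, Mki67 at 88.7 and 145 and Ube2c at 74.2 and 119 were not called. Cks2, at 165 and 150.1, and Cenpa, at 77.1 and 66.3, had the lower level in the Mutant library. Within the 2 clusters of the class the sums were 1621 and 2094 in cluster 9 and 475 and 609 in cluster 21, with log2 ratios of 0.37 (0.25 to 0.49) and 0.36 (-0.02 to 0.73). The class result depended on how finely cells were clustered. At resolution 0.5 the log2 ratio of the sum was 0.05, that of Top2a 0.46, and 0 genes were called. Erythroid markers were at 2915 and 506 and T cell or NK cell markers at 80.7 and 8.73 in this class, with 4 of the 7 at 0 in the Mutant library, and their part was not tested.

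The hair matrix-like class, from whose divisions the shaft grows, had 2237 CPM (2130.04 to 2349) in 486 Control and 1784 (1693 to 1879.9) in 529 Mutant cells, a log2 ratio of -0.33 (-0.43 to -0.22). The level was lower in the Mutant library for 32 of the 40 genes and 0 of 25 tested members were called, where 2.16% of tested features were. Cks2 was highest in both libraries, at 284 and 221. Cks1b was at 181 and 149, Ube2c at 171 and 109.6 and Smc4 at 145 and 160.1, an order that differed between libraries. Mki67 at 108 and 129.8 and Ccnb1 at 38.4 and 46.6 had the higher level in the Mutant library, while Birc5, at 106 and 54.2, had the lower. Cortex or cuticle markers were at 3820.3 and 2021 and erythroid markers at 8606 and 5047 in this class, with 1 of the 11 cortex or cuticle markers at 0 in each library, and their part was not tested. Hair medulla-like cells, the core of the shaft, had 1059 and 1285, a log2 ratio of 0.28 (0.06 to 0.50), with 0 of 19 tested members called against 5.17% of tested features. Erythroid markers were at 8716 and 627 and T cell or NK cell markers at 98.2 and 8.83 there, with 4 of the 7 at 0 in the Mutant library and 1 in the Control library, and their part was not tested. Melanocyte-like cells had 759 and 650.3, a log2 ratio of -0.22 (-0.34 to -0.11), with 0 of 14 tested members called against 3.71%. Cortex or cuticle-like cells and cluster 29, an unnamed cluster led by S100a3, Krt32 and Vsig8, were the lowest of the shaft, at 333 and 283 and at 352 and 258. The 4 shaft clusters together, called the hair shaft group here, had 1487 in 906 Control and 1367 in 1010 Mutant cells, a log2 ratio of -0.12 (-0.21 to -0.03), and 0 of 23 tested members were called, against 4.35% of tested features.

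Mitosis genes that stay on were sought in shaft cells called non-dividing. These were the 517 Control and 551 Mutant cells of the hair shaft group with 0 UMIs of the division lists after thinning. They were set against 232 and 238 dividing cells of the same group. Those with 0 were 57.1% and 54.6% of the thinned cells of the group. With all UMIs, 62.7% and 61.6% of the same thinned cells held at least 2 UMIs of the lists. Some cells called non-dividing therefore held such UMIs before thinning, and they may not have stopped dividing. The summed level was 4072 and 3683 in dividing and 428 and 509 in non-dividing cells. The median gene kept 6.60% of its dividing level in the Control and 7.32% in the Mutant library, and 25 of 40 genes in each library were under 10%. The dividing and non-dividing cells were split by genes that move with the 40, so lower levels follow in part from the selection. This percentage was not computed for other features. Plk1, Ttk, Ckap2l and Cdc25c had 0 UMIs in non-dividing cells of both libraries, which allows up to 3.87 and 3.63 CPM (3 UMIs). Bub1, Kif20b, Hmmr and Ndc80 had 0 UMIs in the Control and 1 in the Mutant library. Top2a was at 6.45 and 10.9 CPM, 2.55% and 4.23% of its dividing level, Ube2c at 14.2 and 7.26, and Birc5 at 1.29 and 10.9.

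The gene with the highest level in non-dividing shaft cells was Cks2, although Ckap2 had the larger share of its dividing level in the Mutant library. Cks2 stood at 153 CPM (127 to 184) in the Control and 149 (124 to 178) in the Mutant library, 38.7% and 49.7% of its dividing level. Its relative Cks1b was at 54.2 (39.0 to 73.2) and 64.1 (48.0 to 83.9), 19.2% and 25.7%. Ckap2 was at 11.6 and 25.4, 22.4% and 56.7%, from 9 and 21 UMIs. Smc4, at 23.2 and 54.4, and Mki67, at 29.7 and 29.04, were the others above 20 CPM in both libraries, at under 20% of the dividing level. To be called kept, a gene needed at least 20% of the dividing level and 20 CPM in both libraries, with its lower bound above the upper bound in non-dividing T or NK cell-like cells, as a class of other origin. By this rule 0 of 40 genes were kept in both libraries, 0 in the Control and 3 in the Mutant library (Ckap2, Cks1b and Cks2). The rule was run on the 40 genes only, so these counts have no background share over all features. The make-up of the non-dividing shaft cells differed between Control and Mutant, and its part was not tested. Matrix-like cells were 211 and 236, medulla-like 99 and 173, cortex or cuticle-like 134 and 79, and cluster 29 cells 73 and 63. Thinned to 3000 UMIs, Cks1b alone was kept in the Mutant library. Ckap2 was also lost there with another random thinning, thinned to 1000, with non-dividing cells defined by 0 UMIs before thinning, and with doublets kept, where Cdc20 was kept instead. Cks1b was lost there at a minimum of 40% and with the fibroblast-like reference. Cks1b missed it in the Control library by its 19.2%. Cks2 missed it there because non-dividing T or NK cell-like cells had 157 CPM in the Control library, as against 35.4 in the Mutant library. Measured against non-dividing fibroblast-like cells, at 74.4 and 45.8, Cks2 was kept in both libraries.

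**Figure D3:**
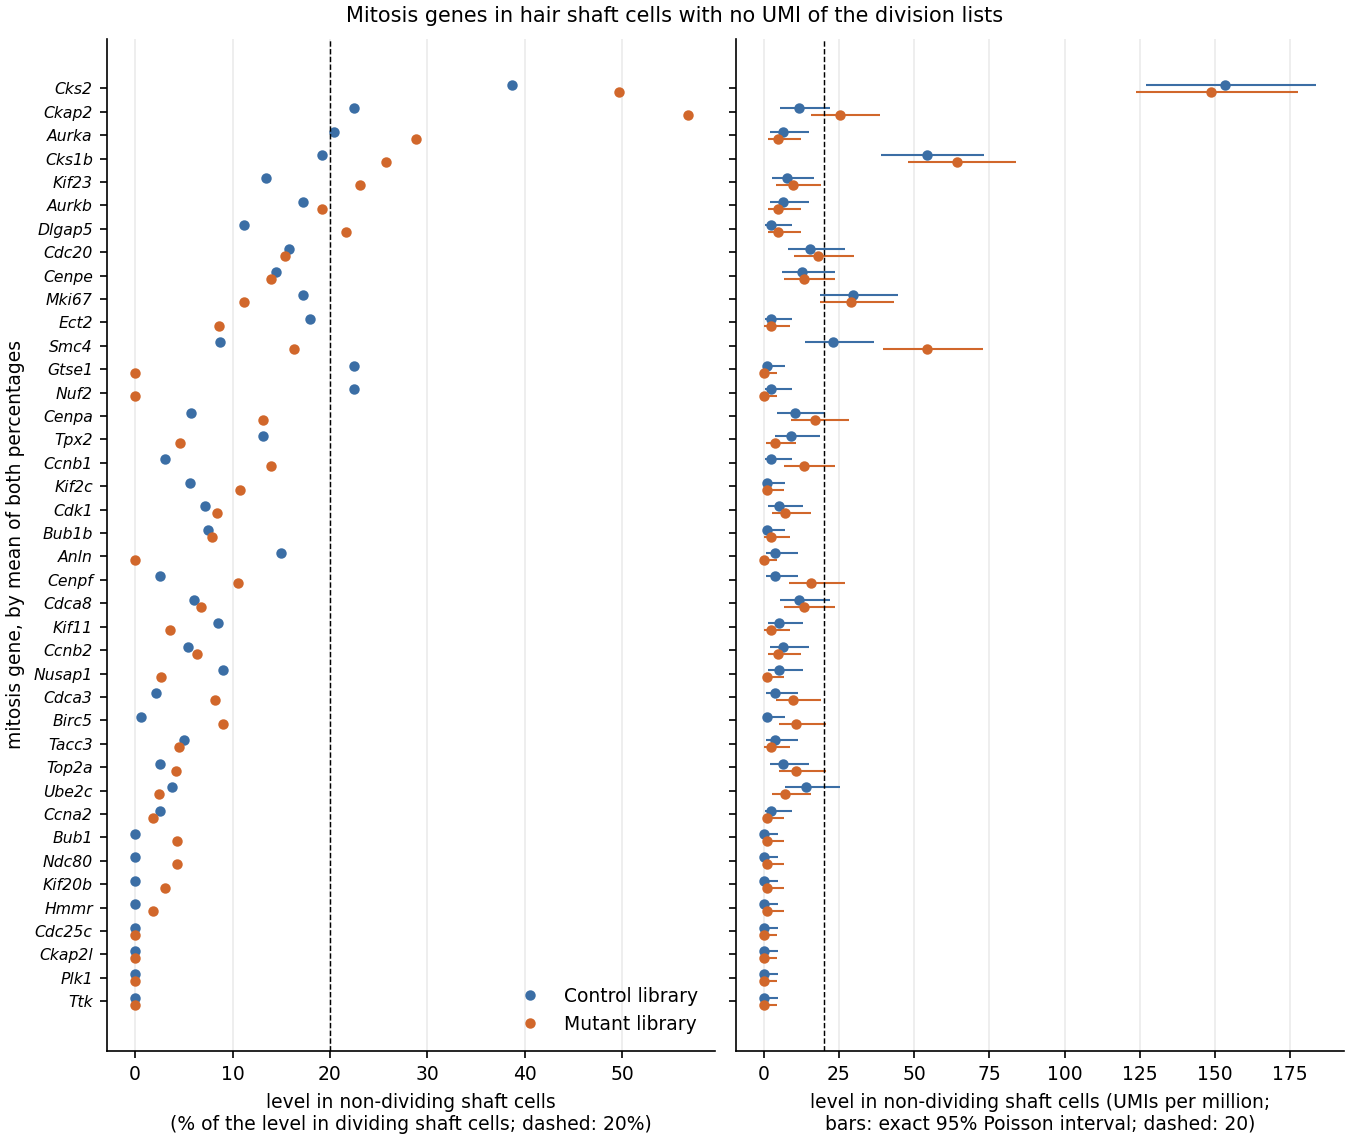
The 40 mitosis genes (y axis) in non-dividing cells of the hair shaft group, as a percentage of their level in dividing shaft cells (left, dashed line at 20%) and as a level in CPM with exact 95% Poisson intervals (right, dashed line at 20). Cks2 lies alone to the right at 153 in the Control (blue) and 149 in the Mutant library (orange), and most other genes lie near 0.

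By cluster, non-dividing hair matrix-like cells had Cks2 at 224 CPM in the Control and 189 in the Mutant library, medulla-like cells at 108 and 150.3, cortex or cuticle-like cells at 99.5 and 67.5 and cluster 29 at 110 and 95.2. The intervals of the 2 libraries overlapped in each of these 4 clusters. Cks1b was at 91.6 and 76.3 in matrix-like cells, 26.9 and 73.2 in medulla-like cells and 29.9 and 42.2 in cortex or cuticle-like cells. The keratin markers of the cortex and cuticle, 11 in all, were at 21761 and 35823 in non-dividing cortex or cuticle-like cells and at 5697 and 2774 in non-dividing matrix-like cells. Both genes were therefore read in clusters with shaft keratins, and whether single cells held both was not tested. Non-dividing medulla-like cells had these markers at only 162 and 135, against 246 and 175 in all T or NK cell-like cells. Medulla markers, by which their class was named, were at 1791 and 2536 in them. In non-dividing cells these were at 72.7 and 84.7 in matrix-like, 124 and 118 in cortex or cuticle-like and 1023 and 815 in cluster 29 cells. Cks2 was not particular to the shaft. In non-dividing cells of other classes it stood at 253 and 61.7 in suprabasal-like, 222 and 79.0 in interfollicular basal-like, 195 and 184 in dermal papilla-like, 147 and 48.7 in upper follicle-like, 135 and 92.6 in inner root sheath-like and 127 and 66.8 in outer root sheath-like cells. In dermal papilla-like and shaft cells the libraries had nearly the same Cks2 level, with overlapping intervals, while in basal-like, suprabasal-like, upper follicle-like and outer root sheath-like cells the Mutant level was the lower and the intervals did not overlap.

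Cenpa, whose protein marks the centromere in place of ordinary histone H3, had a pattern of its own. In T or NK cell-like cells it was at 607 CPM in the Control and 796 in the Mutant library, the highest of the 17 classes in both, where the summed level was 1229 and 1186. Non-dividing T or NK cell-like cells had Cenpa at 595 (564 to 628) and 787 (733 to 843), with a UMI in 42.8% of 1522 Control cells and 59.6% of 678 Mutant cells. That is 114% and 118% of the level in dividing cells of the class. Among the other classes the highest non-dividing level was 74.1 (29.8 to 153), in cluster 5 of the Control library, and fibroblast-like cells had 15.4 and 17.2, with a UMI in 2.31% and 2.29% of cells. Shaft cells had 10.3 and 16.9. Within the class the level varied with the cluster, from 985 in Control cells of cluster 3 and 972 in Mutant cells of cluster 14 to 126 in Control cells of cluster 13. Clusters 3 and 13 were mostly Control and cluster 14 mostly Mutant cells. In clusters 11 and 12, which both libraries filled, Cenpa was at 188 and 296 and at 389 and 463.

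**Figure D4:**
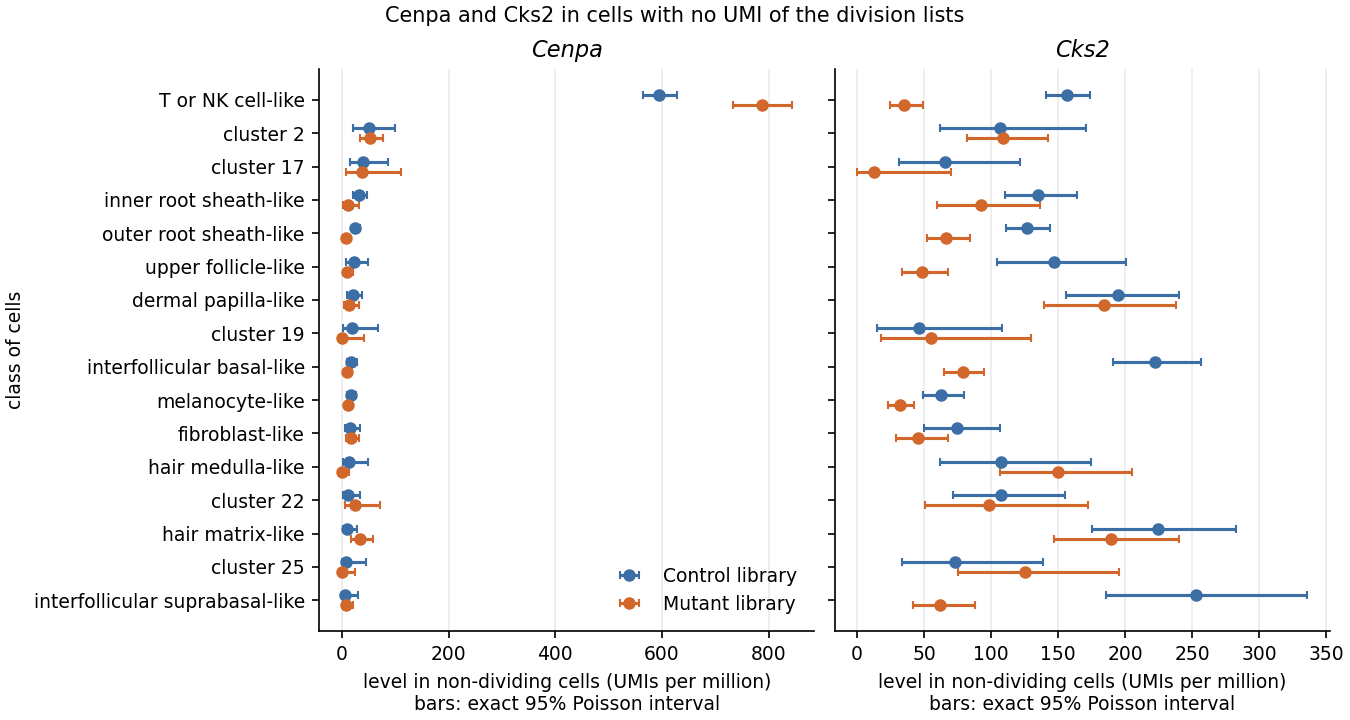
Level of Cenpa (left) and Cks2 (right) in non-dividing cells of each class, in CPM with exact 95% Poisson intervals (blue Control, orange Mutant). T or NK cell-like cells stand alone for Cenpa at 595 and 787, while Cks2 is spread over many classes, from 253 in Control suprabasal-like cells downward.

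Without Cenpa, the log2 ratio of the summed level in T or NK cell-like cells was -0.68 in place of -0.05. Of 7 tested members 1 was called lower in the class, where 5.38% of tested features were: Cks2 at 169 and 52.6 CPM (-1.68, -2.03 to -1.35). Smc4 at 109 and 108, Kif23 at 42.5 and 36.4, Top2a at 41.2 and 24.0, Mki67 at 30.4 and 13.6 and Ube2c at 22.8 and 12.3 were other tested members, and none of these was called. Smc4 and Kif23 were also found in non-dividing cells of the class, at 95.1 and 105 and at 43.8 and 32.4. The class was shallow, with median depths of 2271.5 and 1949.5 UMIs.

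Across the 17 compared classes most of the 40 genes followed the sum of the others. The correlation of each gene's log2(level + 1) with that of the other 39 had a median of 0.807 in both libraries, given as a description over classes that share libraries and cells thinned to 1 depth. It was under 0.5 only for Ttk, at 0.41 and 0.22, a gene at 24.1 and 17.5 CPM in its highest class and 0 in its lowest. Cks2, Cks1b and Cenpa were on the lower side, with 0.58, 0.59 and 0.63 in the Control and 0.63, 0.76 and 0.58 in the Mutant library. Ube2c, at 0.86 and 0.88, and Mki67, at 0.85 and 0.83, are examples of the rest. Rarely counted genes can follow the sum only loosely at these depths.

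Genes outside the 40 were grouped in 4 lists. For comparison, 13.5% of tested features were called lower in interfollicular basal-like, 2.02% in outer root sheath-like and 2.11% in hair shaft cells. In inner root sheath-like cells 1.68% were called higher. The basal-like counts compare mostly Control cells of cluster 6 with Mutant cells of cluster 4. Of the 41 other mitosis genes, 3 were called lower in interfollicular basal-like cells (Prc1, Smc2 and Aspm, of 5 above the minimum) and 3 in outer root sheath-like cells (Spc24, Pbk and Smc2, of 6), and 5 were called higher in inner root sheath-like cells (Kif22, Kif4, Prc1, Arhgap11a and Aspm, of 15). The condensin gene Smc2 was at 73.3 and 10.95 CPM in basal-like cells, and Prc1, which bundles the central spindle, at 34.2 and 97.7 in inner root sheath-like cells. The sum of the list had log2 ratios of -2.09, -0.91 and 0.96 in these 3 classes. Of the 20 DNA replication genes, 1 of 3 was called lower in basal-like cells (Tyms, thymidylate synthase, at 51.2 and 20.3) and 3 of 9 in outer root sheath-like cells (Rrm2, Tk1 and Gins2). Tyms was also called lower in the hair shaft group, at 58.9 and 23.1. No replication gene of the 8 above the minimum was called in inner root sheath-like cells.

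Of the 14 regulators of the mitosis programme, which include E2F factors and the MuvB complex, 1 was called in basal-like cells (Rbl2, lower, of 4) and 0 of 2 in outer root sheath-like, 0 of 5 in inner root sheath-like and 0 of 5 in shaft cells. Lin54, which binds the CHR, was at 13.1 and 15.1 in basal-like and 20.4 and 31.5 in outer root sheath-like cells. Of the 7 CDK inhibitors, which block the cell cycle, 2 of 3 were called lower in basal-like cells, where 13.5% of tested features were. These were Cdkn2d at 99.6 and 15.1 and Cdkn1b at 45.0 and 15.6. Cdkn2c was called lower in outer root sheath-like cells (1 of 4, where 2.02% of tested features were). It was also called lower in melanocyte-like (1 of 4, 2.49%) and fibroblast-like cells (1 of 6, 2.67%). Cdkn2d was called lower in suprabasal-like (1 of 4, 7.58%) and T or NK cell-like cells (1 of 5, 5.38%). Cdkn1c was in upper follicle-like cells (1 of 4, 4.97%). Cdkn1a was called higher in dermal papilla-like cells (1 of 5, 2.97%). Cdkn1a, the most abundant, was at 548 and 361 in basal-like, 138 and 192 in outer root sheath-like, 409 and 520.1 in inner root sheath-like and 317 and 379 in shaft cells, and was not called in these.

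Some counts need care. Mki67, Ccnb1 and Cks2 have near-identical copies of their 3′ ends elsewhere in the genome (1, 4 and 3 genes), 0 of which are among the counted features, so reads matching both places are uncertain. Ccna2, Nusap1, Ube2c, Cdc20 and Tacc3 overlap Exosc9, Oip5, Tnnc2, Elovl1 and Tmem129 on the opposite strand, and whether counting used strand is not given in the sources used here. The TMM scaling factors of the 2 libraries differed by a log2 shift of -0.30 in interfollicular basal-like, -0.39 in suprabasal-like, -0.23 in upper follicle-like, -0.17 in hair medulla-like and -0.11 in melanocyte-like cells. Taken relative to that shift, the sum of the 40 genes kept its direction in each of these 5 classes.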

How the data were processed

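Cells of 1 Control and 1 Mutant 10x 3′ library were analysed from the deposited matrices of raw UMI counts per gene and cell. The authors made them with Cell Ranger 3.0.2 on GRCm38/mm10, and Seurat 3.0.0 and 3.1.0 are also named, per the submitters' processing notes. The 40 genes and the other lists were chosen with earlier results of these data known. Cells under 500 genes (2430 Control, 1396 Mutant) or over 15% mitochondrial UMIs (387 and 560) were removed, and then cells that Scrublet (scanpy 1.11.5) called doublets, 366 (2.59%) and 453 (3.95%) against expected rates of 11.3% and 9.16%. Its expected rate was set after its default called 0 Control doublets. Clusters (2000 variable genes without cell cycle genes, 30 components, 15 neighbours, Leiden resolution 1, leidenalg 0.10.2) were named where a marker score of at least 1 led by 0.3 with 3 markers detected. Erythroid markers competed only where Alas2 was found in 10% of cells, a rule set after clusters were seen, as was the hair shaft group. Levels used cells thinned to 1500 UMIs, with exact 95% Poisson, conditional or Clopper-Pearson intervals (scipy 1.17.1). All 40 genes were named, with full values for up to 6 called members per class with the largest ratios and for members kept in non-dividing shaft cells, and up to 4 genes of each other list with the highest level over all cells; further named genes were chosen after their values were seen. TMM came from edgeR 4.0.16 and is an alternative only. The call rule was run on simulated class sums with known changes and counting noise only. That run cannot show how the calls hold against variation between cells, clusters or samples. Intervals cover counting error only.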

Additional observations from a re-analysis of the deposited data

How the results depend on the processing

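No paired analysis was possible because each group is 1 matrix with no replicate columns, and no replicate could be left out for the same reason. The log2 ratio of the summed level over all cells was -0.34 with TMM, -0.37 with median-ratio scaling, -0.21 without thinning and -0.46 thinned to 3000 UMIs. In interfollicular basal-like cells it was -1.89 with TMM, -2.00 with median-ratio scaling, -2.06 with a stricter cell filter, -2.40 at resolution 2 and -0.34 in cluster 6 alone, and the 26 genes called lower became 4 with a level minimum of 100 and 1 in cluster 6. In outer root sheath-like cells the ratio was -0.86 without thinning and -0.98 at resolution 2, and the count of 12 became 1 with a minimum of 100. In upper follicle-like cells the ratio was -0.98 with TMM, -1.46 with doublets kept and -0.92 at resolution 2, and the count of 4 became 2 with TMM, thinning to 1000 or 3000, or resolution 2, 1 with a minimum of 100 and 7 at 1.5-fold. That class was not named at resolution 0.5 or with the stricter filter, so it has no value there. In inner root sheath-like cells the ratio was 0.046 at resolution 0.5, and the count of 1 became 8 at 1.5-fold, 5 without thinning, 2 thinned to 1000, 3 with doublets kept and 0 at resolution 0.5. The hair shaft group had -0.22 thinned to 1000 and -0.33 with the stricter filter and at resolution 2. At 1.5-fold, 9 genes were called over all cells, 6 in hair matrix-like, 2 in hair shaft, 4 in T or NK cell-like and 18 in outer root sheath-like cells. Without a level minimum, 1 and 2 were called over all cells and in T or NK cell-like cells. For these alternative settings, cluster 6 aside, the share of all features called was not computed. The counts of members called under them therefore have no background here. For the log2 ratio of the shares of dividing cells, mitosis genes alone gave -0.11 over all cells. Basal-like cells had -0.18 in cluster 6, -2.45 from 3 UMIs, -0.77 from 1, -2.25 with mitosis genes alone, -1.19 thinned to 3000 and -1.14 with doublets kept. Outer root sheath-like cells had -1.35 from 3 UMIs, -0.44 from 1 and -0.68 thinned to 3000, and inner root sheath-like cells 0.26 from 1 UMI and 0.32 at resolution 0.5. T or NK cell-like cells reversed from -0.51 to 0.0086 thinned to 3000. The count of 0 genes kept in both libraries became 1 in 5 settings. The gene was Cks1b at 10%, with dividing from 1 UMI, with the stricter filter and at resolution 2, and Cks2 with the fibroblast-like reference only. Causes were not tested. Totals without haemoglobin, cluster 6 alone and the fibroblast-like reference were chosen after seeing the data.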
